A study of Homo sapiens with 40 samples.

Results

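The hepatic drug transporters followed here were 9 genes taken by name from the 56568 gene names of the FPKM tables: the uptake transporters SLCO1B1, SLCO1B3 and SLCO2B1 and the efflux transporters ABCB1, ABCB4, ABCC2, ABCC3, ABCC6 and ABCG2. All 9 were listed in both tables. The SLCO genes encode organic anion transporting polypeptides, which carry bile acids, bilirubin, thyroid hormones and drugs such as statins from blood into the hepatocyte. The ABC genes encode pumps driven by ATP, which move conjugated metabolites, phospholipids and drugs into bile or back into blood. Uptake carriers and efflux pumps together set how much of a compound stays in a liver cell.

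Transcripts were measured by RNA sequencing in HepaRG, an established human hepatic line, bought from a single commercial source, whose differentiated cultures hold hepatocytes beside primitive biliary cells. Cells were exposed from day 8 to day 14 (6 days), and all groups, controls included, shared a medium with serum and DMSO. Each of the 8 groups held 5 libraries: a control with the solvent alone, 3 PCB 126 groups (100 pM, then 10 nM, then 1 µM), 3 groups with the herbicide glyphosate (10 µg/L, then 1 mg/L, then 0.1 g/L), and 1 group with Roundup, a formulated glyphosate herbicide, at 10 µg/L. PCB 126 belongs to the polychlorinated biphenyls that bind the aryl hydrocarbon receptor (AhR) as dioxin does, and the 5 control libraries served both the PCB 126 and the herbicide comparisons. The labels do not say whether the libraries of a group came from separate cultures, so p-values measure the spread between these libraries only. FPKM, fragment counts scaled by transcript length and library size, were summed per gene name. Differences are given on the log2(FPKM + 1) scale, which understates changes of genes with low FPKM, and were tested with limma over all genes whose variance of FPKM exceeded 1 (adjusted p, Benjamini-Hochberg, threshold 0.05).

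The control cultures held the hepatocyte transcripts ALB at 11206 ± 1483 FPKM and SERPINA1 at 4210 ± 1631 FPKM (SD, n = 5), and the biliary keratin KRT19 at 303 ± 85.6 FPKM (SD, n = 5), whereas EPCAM, KRT7 and VIM were below 1 FPKM on average by name. Assembled transcripts without a gene name were not examined for these markers. Some libraries stood apart from the others on the first principal component of each table. In the PCB 126 table these were 5 of 20 libraries (control replicate 5, replicates 3 and 5 of 10 nM, and replicates 1 and 5 of 1 µM), with summed FPKM of 186215 to 252735 against 263117 to 436736 in the other libraries. In the herbicide table these were 5 of 25 libraries (control replicate 5, replicate 5 of 10 µg/L glyphosate, replicate 2 of 0.1 g/L glyphosate, and replicates 4 and 5 of Roundup). The calls at 1 µM, the dose-step slopes of ABCG2 and SLCO1B1, the marker sums and the uptake share are given with and without them.

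In the control libraries, the efflux pump ABCC3, which exports glucuronides into blood, had the highest level, at 48.9 ± 13.1 FPKM (SD, n = 5). ABCC2, the canalicular pump for bilirubin glucuronides, followed at 33.3 ± 7.35 FPKM, and ABCB1, which encodes P-glycoprotein, at 24.6 ± 6.28 FPKM. SLCO1B1 was the leading uptake transporter at 13.7 ± 4.21 FPKM. These 4 genes kept this order in each of the 5 control libraries, although the ranges of neighbours overlapped between libraries. ABCC6 (6.45 ± 3.28 FPKM), SLCO2B1 (5.37 ± 0.527 FPKM) and the phosphatidylcholine floppase ABCB4 (4.81 ± 1.55 FPKM) formed a middle group in which neighbours did not differ beyond their spread. SLCO1B3 at 0.708 ± 0.440 FPKM and ABCG2, the breast cancer resistance protein that exports sulfates and many drugs, at 0.484 ± 0.362 FPKM were the lowest by name, and SLCO1B3 was above ABCG2 in 3 of 5 control libraries. ABCB4 and SLCO1B3 were the only neighbours in this order whose control ranges did not overlap. These levels leave out assembled transcripts without a gene name. Over the 40 libraries such transcripts held 57.8% of the FPKM of the SLCO1B3 locus and 52.4% of that of ABCG2. For ABCC2, ABCC3, ABCB4, SLCO2B1 and ABCC6 their share was 14.7 to 27.3%. The plot of the 9 genes by library gives their levels in all 8 groups.

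**Figure D1:**
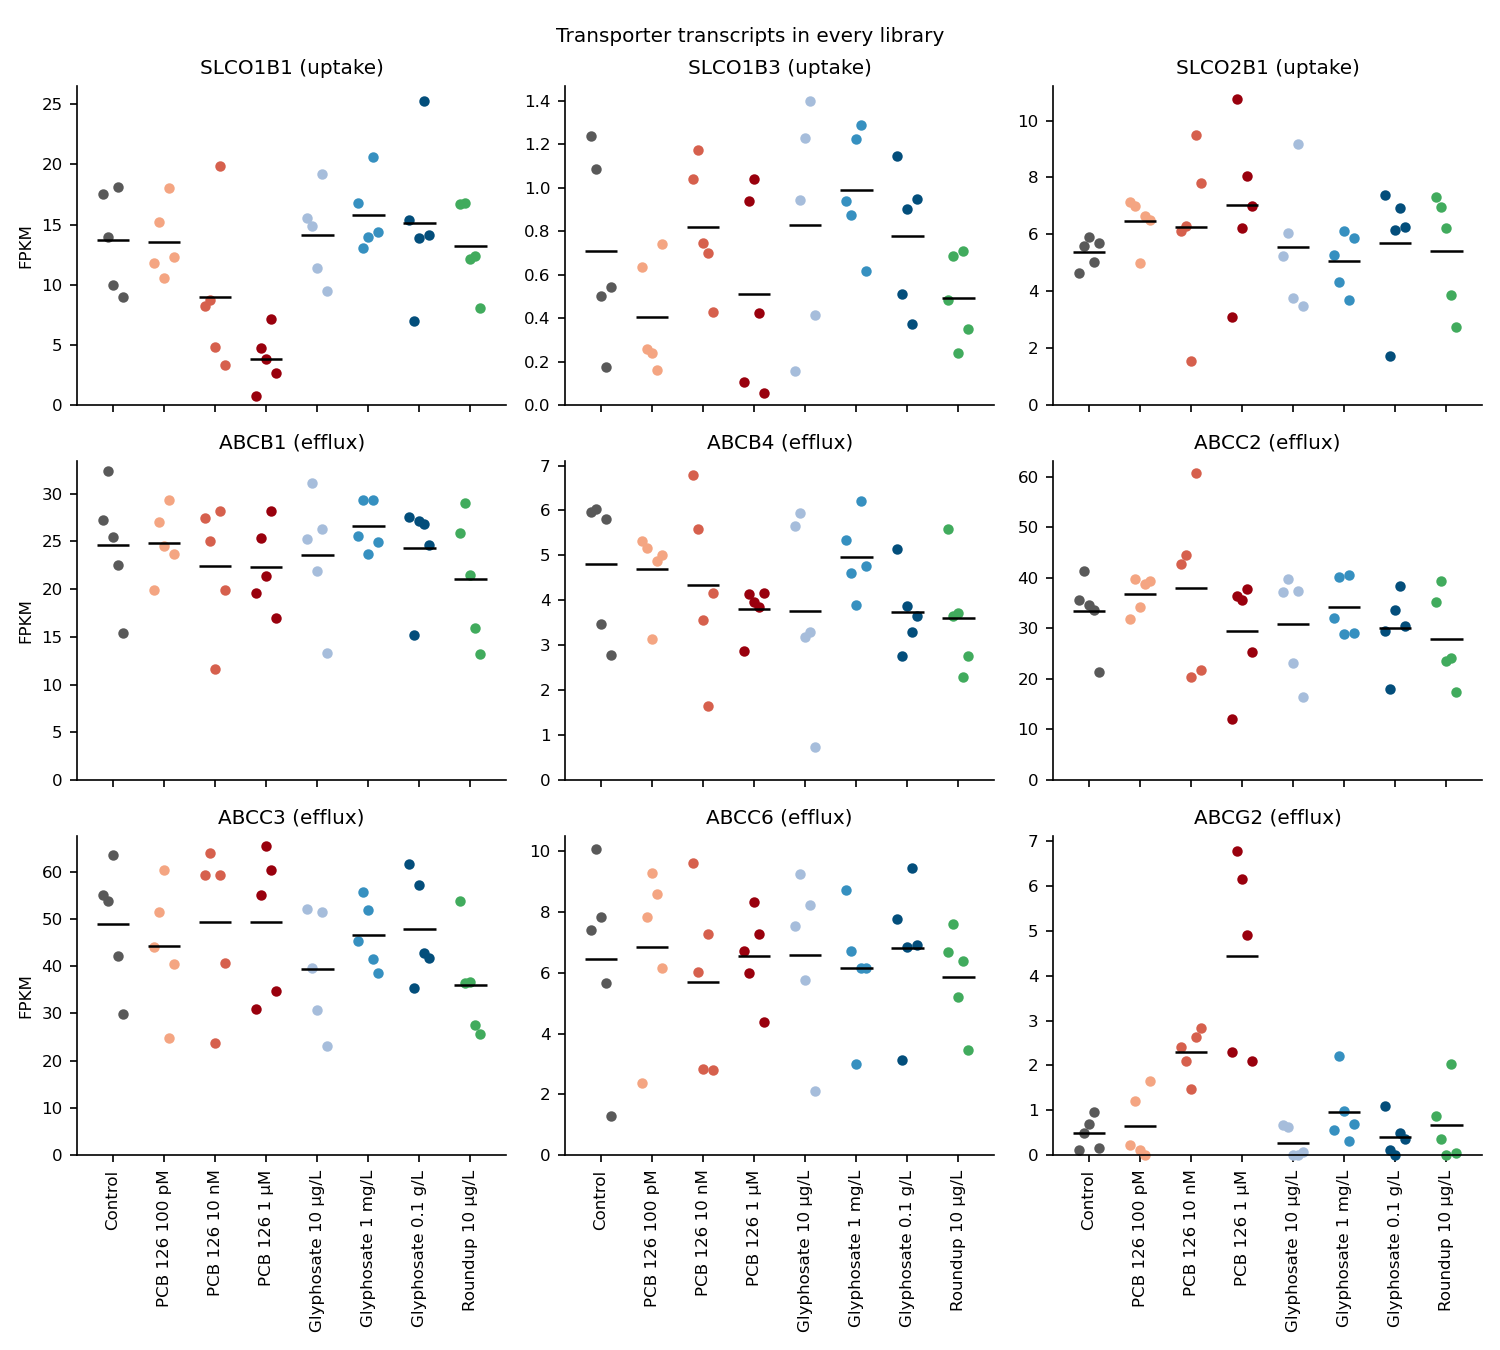
FPKM of the 9 transporters (y axis, linear, each panel with its own scale from 0) in each of the 8 groups (x axis). Points are libraries (n = 5 per group) and bars are group means. SLCO1B1 is at 0.712 to 7.17 FPKM in the 1 µM PCB 126 libraries and at 8.99 to 18.1 FPKM in the controls, while ABCG2 is at 2.10 to 6.78 FPKM against 0.112 to 0.970 FPKM.

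PCB 126 altered 2 of the 9 transporters in opposite directions. At 1 µM, ABCG2 was 9.20 times the control mean by name and SLCO1B1 was 3.60-fold lower, while the other members measured did not pass the test. At 100 pM none of the 8 members that passed the variance filter (all but SLCO1B3) had an adjusted or unadjusted p under 0.05 in limma, where 0% and 1.19% of the 9755 genes tested did. At 10 nM 0 of 8 passed the threshold in limma, against 0.205% of all genes, and ABCG2 was the 1 member with an unadjusted p under 0.05, against 4.85%. At 1 µM these 2 of 8 had an adjusted p under 0.05 in limma, against 1.87% of the genes tested. Both were also the members without overlap between treated and control libraries, against 2.35% of the genes tested. As ABCG2 passed the filter only through the 1 µM group, nothing is read from these shares. With no filter, over 43478 genes, ABCG2 was the 1 member that passed the threshold in limma, against 0.398% of all genes. The median difference of the 8 members that passed the filter was -0.06 on the log2 scale, beside -0.26 over all genes tested, and describes these 8 only.

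ABCG2 was low in the control libraries, which held 0.112, 0.489, 0.692, 0.970 and 0.158 FPKM. At 100 pM the libraries held 0.231, 1.21, 0.109, 0 and 1.66 FPKM. At 10 nM they held 2.41, 2.09, 1.48, 2.64 and 2.84 FPKM. The 100 pM values spread around those of the controls, whereas every 10 nM library was above every control library. At 1 µM the values were 2.31, 6.78, 6.16, 4.92 and 2.10 FPKM. All of these were above the controls, and 2 of the 5 overlapped with the 10 nM libraries. The rise at 1 µM was 1.81 ± 0.31 (log2, SE; limma adjusted p = 0.0013), and the exact permutation test of 5 against 5 libraries gave p = 0.00794, the smallest it can give for groups of this size. At 10 nM the difference was 1.17 ± 0.31 (log2, SE; 95% interval 0.53 to 1.80), which missed the threshold in limma (adjusted p = 0.18) and passed it under 75th-percentile scaling, quantile normalization and array weights (limma adjusted p of 0.01 to 0.022). Those settings called 1.44%, 1.89% and 2.45% of all genes at 10 nM, in that order. Without scaling or weights, 0.513% of all genes tested did not overlap with the controls at 10 nM. At 100 pM the difference was 0.07 ± 0.31 (log2, SE; limma adjusted p = 1). Across the PCB 126 groups together ABCG2 passed the threshold (limma F-test, adjusted p = 0.0017), as did 1.39% of all genes. It also rose over the dose steps from control to 1 µM, by 0.65 ± 0.10 per step (log2, SE; limma adjusted p = 0.00024), as 3.78% of all genes changed in either direction. These calls, and those at 10 nM under scaling or weights, followed a variance filter that ABCG2 passed only through its 1 µM values. With no filter, limma adjusted p was 0.024 across the groups (F-test), 0.0037 over the dose steps and 0.51 at 10 nM. The scaled and weighted fits were not run without the filter, so their 10 nM calls are not separate support for a rise.

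ABCG2 entered the limma fit because of its high values at 1 µM: its variance of FPKM was 3.88 over the 20 libraries and 0.996 without the 1 µM group, where 1 was needed. With no filter, its adjusted p in limma was 0.0145 at 1 µM. Without the 5 libraries that stand apart, the rise at 1 µM was 2.17 (limma adjusted p = 0.00095) and that per dose step 0.76 (limma adjusted p = 0.001). With each library left out in turn, it lay between 1.66 and 1.99 (log2).

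The assembled transcripts of the ABCG2 locus (chr4:88090264-88231322, minus strand, GRCh38) changed the size of this rise. Of the 4 transcripts with the name ABCG2, ENST00000237612, with 16 exons, carried 72.7% of the FPKM over all 40 libraries. It was at 0.106 ± 0.0793 FPKM in the controls and at 3.91 ± 1.92 FPKM at 1 µM (SD, n = 5), and it rose by 2.06 on the log2 scale (limma over 21181 transcripts, adjusted p = 0.0019). The exposed libraries, where it was high, brought this transcript past the variance filter. Transcripts were not fitted without that filter, so this adjusted p is not separate support for the rise. A further transcript, MSTRG.31387.3, was assembled by StringTie at this locus, also with 16 exons and without a gene name. It was at 1.11 ± 0.378 FPKM in the controls and at 3.50 ± 0.959 FPKM at 1 µM (SD, n = 5), a difference of 1.08 that did not pass the threshold (limma adjusted p = 0.18). This transcript held 52.4% of the FPKM of the locus over the 40 libraries, so the sum by name missed most of the baseline signal. With it added, the locus was at 1.59 ± 0.504 FPKM in the controls, 3.78 ± 1.35 FPKM at 10 nM and 7.95 ± 2.94 FPKM at 1 µM (SD, n = 5). The ratio of the 1 µM to the control mean was then 4.99 rather than 9.20, with no overlap (exact permutation test, p = 0.00794), and the difference was 1.74 (limma adjusted p = 0.0006). At 10 nM the ratio was 2.38 and the groups overlapped (exact permutation test, p = 0.0397; limma adjusted p = 0.48). The bar plot of the locus shows both kinds of transcript in each library.

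**Figure D2:**
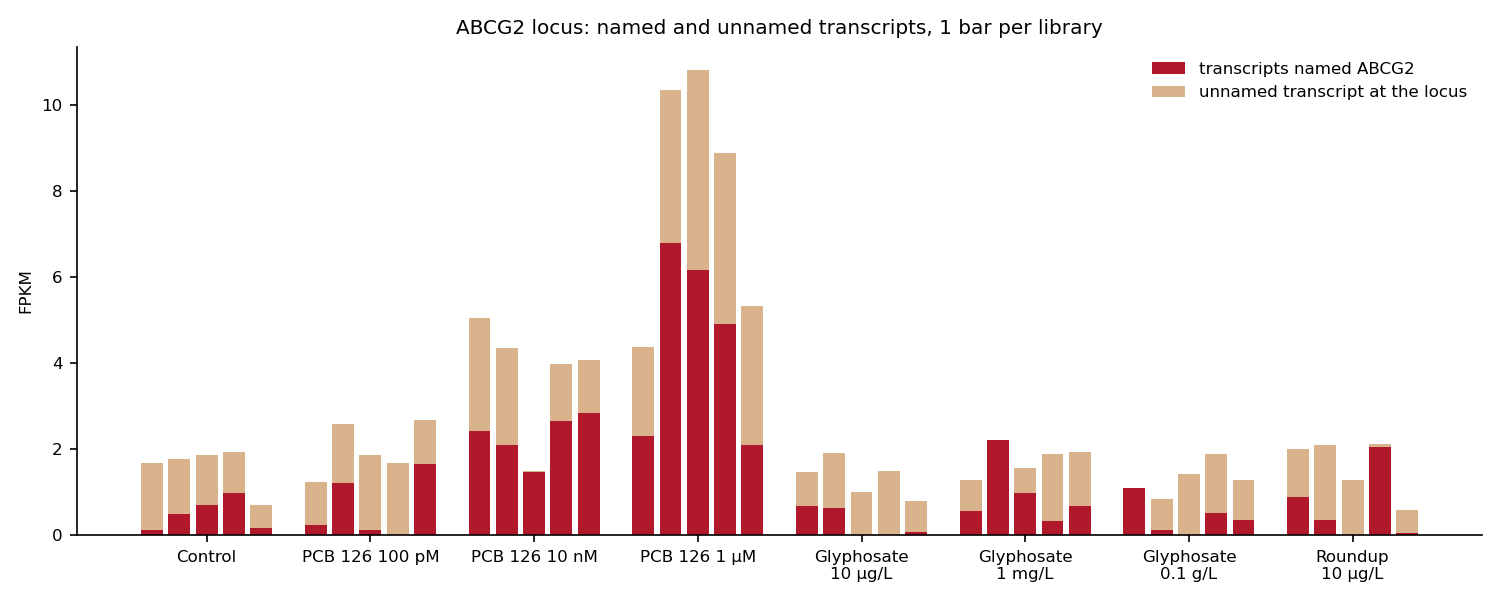
FPKM (y axis, from 0) at the ABCG2 locus in all 40 libraries, 1 bar per library, grouped by treatment (x axis). Dark bars are the transcripts named ABCG2 and light bars the unnamed assembled transcript, and the sums reach 4.37 to 10.8 FPKM at 1 µM PCB 126 against 0.708 to 1.94 FPKM in the controls.

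The promoter window upstream of the ABCG2 start site used by ENST00000237612 is shown because that transcript passed the threshold, and the window of SLCO1B1 because this gene fell. RefSeq windows (GRCh38.p14) were found for 7 of the 9 transporters, and the 250 bases before each start site were searched on both strands for the 5-base core of dioxin-responsive elements, GCGTG. Of the 35116 windows in the table, 32.2% held this core. Capitals mark each match, and both sequences run 5′ to 3′ on the strand of the gene. The ABCG2 window, chr4:88158910-88159159 on the minus strand, ends 3 bases from the 5′ end of ENST00000237612 and held 2 matches, which start 198 and 64 bases before the start site. The SLCO1B1 window, chr12:21130944-21131193 on the plus strand, held no match.
ABCG2: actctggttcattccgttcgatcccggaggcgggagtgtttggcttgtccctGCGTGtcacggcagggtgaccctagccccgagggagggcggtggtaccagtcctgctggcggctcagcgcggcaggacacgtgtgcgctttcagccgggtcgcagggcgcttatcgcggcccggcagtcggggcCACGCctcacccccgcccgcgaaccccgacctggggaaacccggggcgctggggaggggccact
SLCO1B1: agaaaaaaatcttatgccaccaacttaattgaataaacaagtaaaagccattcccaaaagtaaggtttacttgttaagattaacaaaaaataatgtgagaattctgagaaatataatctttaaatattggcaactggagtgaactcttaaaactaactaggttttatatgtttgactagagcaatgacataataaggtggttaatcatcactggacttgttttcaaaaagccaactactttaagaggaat
ABCG2 had 5 RefSeq windows, of which 3 held a match. The window with its start site at base 88158859 overlaps the window shown and holds the same 2 matches, so the windows are not separate counts. The window whose start site, at base 88159290, lies 12 bases from the 5′ end of the unnamed transcript MSTRG.31387.3 held none. Among the other transporters, ABCB1 had a match in 1 of 2 windows, 53 bases before the start site. A match describes the letters only, and binding was not measured.

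SLCO1B1 was the second member altered by PCB 126. The control libraries held 17.5, 14.0, 9.94, 18.1 and 8.99 FPKM. At 100 pM the values were 11.8, 15.2, 10.6, 18.1 and 12.3 FPKM. At 10 nM they were 8.24, 8.70, 4.85, 19.9 and 3.30 FPKM. The 100 pM libraries lay within the control range, and at 10 nM 4 of 5 libraries were below every control library while 1 was above all of them. At 1 µM the values were 0.712, 4.75, 3.80, 7.17 and 2.65 FPKM, all below the lowest control library. SLCO1B1 fell at 1 µM by 1.74 ± 0.38 on the log2 scale (SE; limma adjusted p = 0.0108), with p = 0.00794 in the exact permutation test. At 10 nM the difference was -0.73 ± 0.38 (log2, SE; 95% interval -1.51 to 0.06; limma adjusted p = 0.86), and at 100 pM it was 0.01 ± 0.38 (limma adjusted p = 1). The fall over the dose steps was 0.60 per step (slope -0.60 ± 0.12, log2, SE; limma adjusted p = 0.0048), and the test across the PCB 126 groups passed the threshold (limma F-test, adjusted p = 0.024).

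The call for SLCO1B1 was closer to the threshold than that for ABCG2. With no filter, the adjusted p in limma was 0.083 at 1 µM and 0.19 across the groups. The test across the groups was also lost without replicate 1 of 1 µM (limma adjusted p = 0.072), without replicate 5 of 1 µM (0.084) and without the 5 libraries that stand apart (0.068). Without those 5 libraries, the fall at 1 µM was 1.35 (log2 -1.35; limma adjusted p = 0.017) and the slope per dose step -0.42 (limma adjusted p = 0.022). SLCO1B1 has a single annotated transcript in the tables, ENST00000256958, with 15 exons at chr12:21131202-21239246 on the plus strand. Tested among 21181 transcripts, it missed the threshold at 1 µM (limma adjusted p = 0.067) and passed it over the dose steps (limma adjusted p = 0.033). SLCO1B3 and SLCO1B7 are close relatives of this gene, and the counting could split reads between them. SLCO1B7 was at 0.0788 FPKM on average over the 40 libraries.

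The summed level of hepatocyte markers was lower in the group where SLCO1B1 fell. The sum (ALB, APOA1, APOB, TTR, TF, SERPINA1, CYP3A4 and HNF4A) was 13456 to 19731 FPKM in the controls and 5480 to 13586 FPKM at 1 µM, and ALB made up most of it. Without the 5 libraries that stand apart, it was 16030 to 19731 FPKM and 8299 to 13586 FPKM. Of these 8 genes, 1 passed the threshold at 1 µM, against 1.87% of all genes tested. This was TTR, the carrier of thyroxine and retinol, which fell by 1.62 ± 0.34 (log2 -1.62, SE; limma adjusted p = 0.008). ALB and TF also fell over the dose steps (limma adjusted p = 0.020 and 0.015), which was lost without those 5 libraries (0.053 and 0.096), where TTR fell by 1.35 (log2 -1.35; limma adjusted p = 0.023) and ALB passed at 1 µM (limma adjusted p = 0.031). HNF4A, at 19.5 ± 3.95 FPKM in the controls and 27.0 ± 9.77 FPKM at 1 µM, and CYP3A4, at 3.08 ± 2.27 and 4.22 ± 1.93 FPKM (SD, n = 5), had differences above 0 that did not pass. Relative to these markers, SLCO1B1 was at 0.770 ± 0.146 FPKM per 1000 FPKM of marker in the controls and at 0.383 ± 0.171 at 1 µM (SD, n = 5), a ratio chosen after the values were seen. The ranges of this ratio, 0.620 to 0.930 and 0.130 to 0.528, did not overlap, nor did those without the 5 libraries (0.620 to 0.930 and 0.458 to 0.528). The summed biliary markers were lower too, at 361 ± 97.5 FPKM in the controls and 192 ± 40.1 FPKM at 1 µM (SD, n = 5), with 0 of the 3 tested past the threshold in limma and 3 at an unadjusted p under 0.05, against 13.6% of all genes. EPCAM was at most 0.0401 FPKM in the controls and listed at 0 at 1 µM. The summed mesenchymal markers were 69.8 ± 18.2 FPKM in the controls and 130 ± 61.8 FPKM at 1 µM (SD, n = 5), mostly from LUM, while COL3A1 fell by 3.07 (log2 -3.07; limma adjusted p = 2.29e-05) and VIM stayed below 1 FPKM. Without the 5 libraries, the biliary sums were 395 ± 70.2 FPKM (SD, n = 4) and 209 ± 9.70 FPKM (SD, n = 3), the mesenchymal sums 77.7 ± 4.38 and 174 ± 12.1 FPKM, and COL3A1 fell by 3.22 (log2 -3.22; limma adjusted p = 0.00042), while LUM rose by 1.45 (limma adjusted p = 1.77e-05), COL1A1 by 1.04 (0.043) and DCN by 1.11 (0.048), and the biliary marker SPP1 fell by 0.99 (log2 -0.99; 0.0015). Of all genes tested, 3.78% passed over the dose steps and, without the 5 libraries, 5.33% passed at 1 µM. The part of these markers in the transporter changes was not tested, and in such cultures fewer cells of a type cannot be told apart from less RNA per cell.

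SLCO2B1, the uptake transporter also found in intestine and other tissues, did not follow SLCO1B1. The control libraries held 4.63 to 5.91 FPKM, the 10 nM libraries 1.53 to 9.48 FPKM and the 1 µM libraries 3.10 to 10.8 FPKM. At 1 µM its difference was 0.26 (log2, 95% interval -0.38 to 0.90; limma adjusted p = 0.70). SLCO1B1 exceeded SLCO2B1 in all 5 control libraries, in 4 of 5 libraries at 10 nM and in 0 of 5 at 1 µM, so the order of both uptake genes was turned there. SLCO1B3, the liver-specific relative of SLCO1B1, was at 0.512 ± 0.459 FPKM at 1 µM (SD, n = 5). By name it did not pass the variance filter, and its difference of -0.19 from the controls was within the spread (exact permutation test, p = 0.48). The unnamed transcripts, which held 57.8% of the FPKM of its locus over the 40 libraries, are not part of these values.

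The other 5 efflux transporters did not pass the threshold at any PCB 126 concentration. At 1 µM ABCC3 was at 49.3 ± 15.5 FPKM (SD, n = 5), a difference of -0.002 from the controls with a 95% interval of -0.64 to 0.63 (log2). ABCB1 was at 22.3 ± 4.50 FPKM, with an interval of -0.65 to 0.41. ABCC2 was at 29.4 ± 10.9 FPKM, with an interval of -0.90 to 0.40. These intervals leave room for changes of the abundant pumps as large as a fall of 0.90 (log2 -0.90) for ABCC2. ABCB4 was at 3.80 ± 0.531 FPKM (interval -0.79 to 0.32) and ABCC6, which exports ATP from hepatocytes, at 6.55 ± 1.48 FPKM (interval -0.62 to 0.95). Limma adjusted p at 1 µM ranged from 0.68 for ABCB4 to 1.00 for ABCC3. The plot of the differences shows all 9 genes at the 7 treatments.

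**Figure D3:**
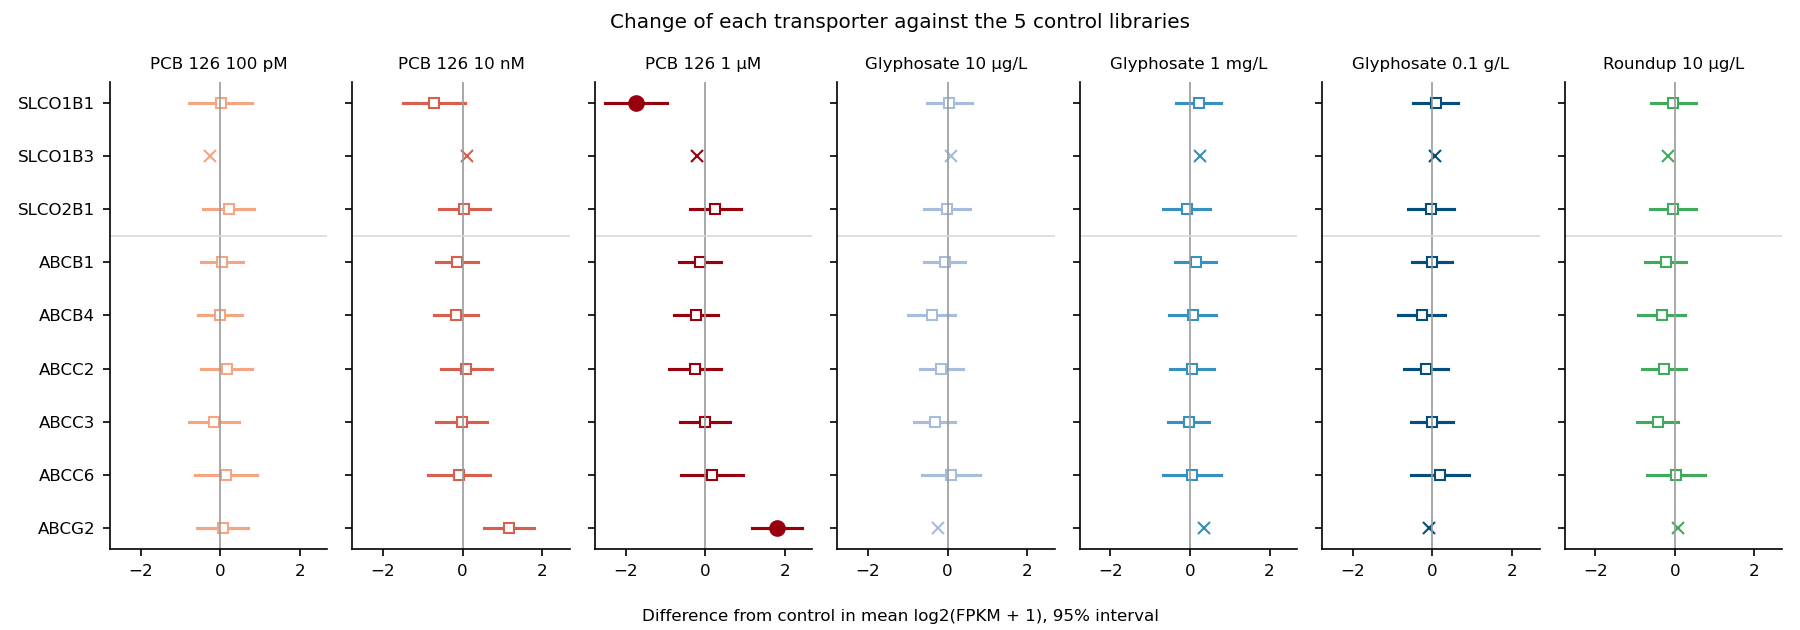
Difference of each transporter from the 5 control libraries in mean log2(FPKM + 1) (x axis), 1 panel per treatment (n = 5 libraries each), uptake genes above the grey line. Squares are limma estimates with 95% intervals, filled circles those with adjusted p under 0.05 (SLCO1B1 and ABCG2 at 1 µM PCB 126), and crosses are genes that did not pass the variance filter, plotted with no interval.

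Single transcripts of the other transporters were tested in the same way. Of the 28 transporter transcripts with enough variance, 1 passed the threshold at 1 µM in limma, ENST00000237612 of ABCG2, against 0.552% of the 21181 transcripts tested. Over the dose steps 3 passed, against 0.85%: ENST00000237612, the SLCO1B1 transcript, and an unnamed transcript with 28 exons at the ABCC6 locus, MSTRG.14930.8. The latter was at 0.131 ± 0.215 FPKM in the controls, 4.05 ± 3.07 FPKM at 10 nM and 3.62 ± 2.53 FPKM at 1 µM (SD, n = 5; limma adjusted p = 0.034 over the dose steps). The variance filter took in the treated groups, and ABCG2 by name passed it only through the 1 µM group. Nothing is therefore read from either share of transcripts. The full-length ABCC6 transcript ENST00000205557, with 31 exons, was listed at 0 in 1 of 5 control libraries, in 4 of 5 at 10 nM and in 3 of 5 at 1 µM, and its difference of -1.50 at 1 µM did not pass the threshold (limma adjusted p = 0.45). ABCC6 (chr16:16148928-16223522, minus strand) has near-identical pseudogene copies, ABCC6P1 and ABCC6P2, which were at 3.01 and 0.752 FPKM on average over the 40 libraries, so its reads may be split and its values are uncertain.

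The uptake and efflux sides were then set against each other in each library. The 3 uptake genes summed to 19.8 ± 3.84 FPKM in the controls, 20.4 ± 3.44 FPKM at 100 pM, 16.1 ± 8.62 FPKM at 10 nM and 11.4 ± 5.06 FPKM at 1 µM (SD, n = 5). The 6 efflux genes summed to 118.5 ± 29.4 FPKM in the controls and 115.8 ± 32.2 FPKM at 1 µM (SD, n = 5), with group means of 118.1 and 122.2 FPKM at 100 pM and 10 nM. The uptake share of all transporter FPKM was 14.7% ± 3.03 in the controls and 8.62% ± 2.44 at 1 µM (SD, n = 5), with ranges of 10.8 to 17.7% and 5.00 to 10.9% that overlapped. Without the 5 libraries it was 14.0% ± 2.91 (SD, n = 4) and 9.38% ± 1.88 (SD, n = 3), with ranges that still overlapped. Of the sums, ABCG2 made up 0.408% of the efflux FPKM in the controls and 3.84% at 1 µM, whereas SLCO1B1 made up 69.3% and 33.6% of the uptake FPKM. On the log scale each gene counts equally within its side, so 1 of the 3 uptake genes weighs more than 1 of the 6 efflux genes. The mean log2(FPKM + 1) of uptake minus efflux genes was -1.02, -1.29, -1.38, -1.24 and -0.57 in the controls. At 1 µM it was -2.30, -1.64, -1.97, -1.76 and -1.76, below all controls, and at 10 nM it was -1.43 ± 0.26 (SD, n = 5), which overlapped with them. The score holds SLCO1B1 and ABCG2, the 2 genes called at 1 µM, and so is not separate from those calls. As the genes were chosen with earlier results known, this score is a description without a test.

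**Figure D4:**
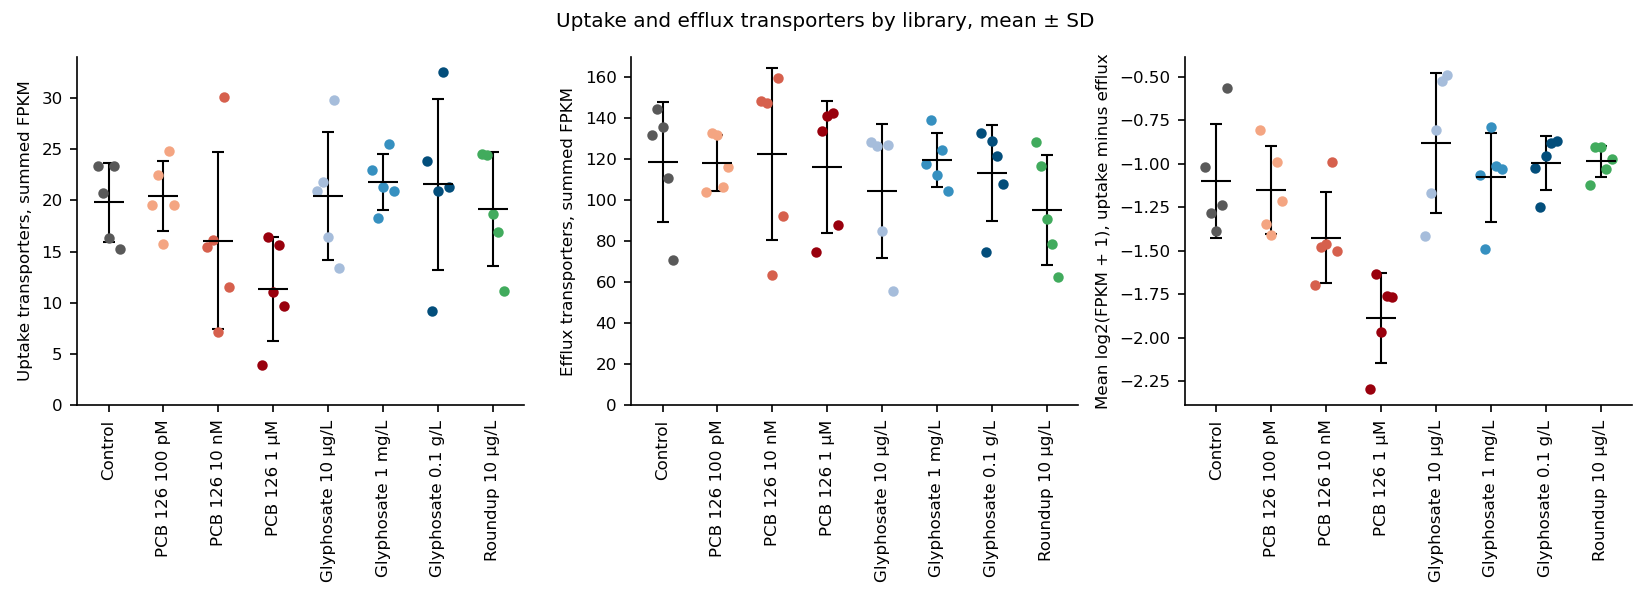
Summed FPKM of the 3 uptake genes, summed FPKM of the 6 efflux genes (both from 0), and the mean log2(FPKM + 1) of uptake minus efflux genes (y axes) in the 8 groups (x axes). Points are libraries (n = 5 per group) and bars are mean ± SD, and the score in the last panel is -1.10 ± 0.33 in the controls and -1.88 ± 0.26 at 1 µM PCB 126.

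None of the transporters passed the threshold with glyphosate or Roundup in the fit that weights libraries equally. Of the 9 members 7 passed the variance filter in the herbicide table (ABCG2 and SLCO1B3 did not), and 0 had an adjusted or an unadjusted p under 0.05 in limma at any herbicide dose. Over the 9533 genes tested, 0% had an adjusted p under 0.05, and an unadjusted p under 0.05 was found for 0.997% at 10 µg/L glyphosate, 1.31% at 1 mg/L, 0.881% at 0.1 g/L and 1.73% with Roundup. SLCO1B1 was at 9.44 to 19.2 FPKM at 10 µg/L glyphosate, 13.1 to 20.6 FPKM at 1 mg/L, 7.01 to 25.3 FPKM at 0.1 g/L and 8.10 to 16.8 FPKM with Roundup, around the control range of 8.99 to 18.1 FPKM. The 95% intervals of its 4 differences from the controls lay between -0.60 (Roundup) and 0.78 (1 mg/L) on the log2 scale. The ABCG2 libraries held 0 to 0.675 FPKM at 10 µg/L glyphosate, 0.317 to 2.20 FPKM at 1 mg/L, 0 to 1.10 FPKM at 0.1 g/L and 0 to 2.04 FPKM with Roundup. All of these ranges overlapped with the controls, and the exact permutation tests gave p = 0.21 to 0.84. With the unnamed transcript added, the locus means were 1.31 to 1.77 FPKM in the 4 herbicide groups beside 1.59 FPKM in the controls. The difference farthest from 0 was that of ABCC3 with Roundup, at 36.0 ± 11.1 FPKM, or -0.43 on the log2 scale (95% interval -0.96 to 0.09; limma adjusted p = 0.90). Replicates 4 and 5 of Roundup, which stand apart on the first principal component, held 27.6 and 25.6 FPKM of it. The median difference of all genes with Roundup was -0.178, and -0.025 without the herbicide-table libraries that stand apart. With array weights, which give libraries far from their group less weight, ABCC3 (-0.54, limma adjusted p = 0.0061), ABCC2 (-0.56, 0.0031) and ABCB1 (-0.27, 0.047) passed the threshold with Roundup. So did 3470 of 9533 genes (36.4%) under these weights, a share close to that of the 3 of 7 members, so the calls say nothing particular about transporters. Roundup and glyphosate at 10 µg/L differed by -0.16 to 0.06 over the 7 tested members (limma adjusted p of at least 0.97; unadjusted p under 0.05 for 0 of 7 members and 1.27% of all genes). The test across all herbicide groups and that over the glyphosate dose steps likewise gave 0 of 7 members with an unadjusted p under 0.05 in limma, beside 1.36% and 1.15% of all genes. The uptake-minus-efflux score was -0.99 ± 0.09 with Roundup and -0.88 ± 0.40 with glyphosate at 10 µg/L (SD, n = 5).

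The transporters outside the 9, the nuclear receptors that regulate such genes and the AhR targets were read from fixed lists at 1 µM PCB 126. Of 23 other transporters, 14 passed the variance filter and 0 passed the threshold in limma, against 1.87% of all genes tested. An unadjusted p under 0.05 was found for 4, against 13.6% of all genes. The most abundant, ABCC1 and the cholesterol exporter ABCA1, were at 16.3 ± 5.89 and 16.1 ± 4.21 FPKM in the controls and at 16.3 ± 4.34 and 14.2 ± 7.91 FPKM at 1 µM (SD, n = 5). The transporters named next were picked with their values in view. The smallest adjusted p in limma belonged to the organic anion carrier SLC22A9, at 2.79 ± 0.823 FPKM in the controls and 0.490 ± 0.274 FPKM at 1 µM (SD, n = 5; difference -1.34, adjusted p = 0.056). SLC22A7, the organic anion transporter of the basolateral membrane, was at 6.29 ± 1.54 and 2.52 ± 1.31 FPKM (limma adjusted p = 0.15), and the multidrug and toxin extrusion protein SLC47A1 at 8.75 ± 2.56 and 13.9 ± 3.89 FPKM (limma adjusted p = 0.30). Without the 5 libraries that stand apart, SLC47A1 passed the threshold with a rise of 0.71 (log2; limma adjusted p = 0.0024), as did 5.33% of all genes in that fit. The bile acid carriers SLC10A1 and ABCB11 were too low to be tested, at 0.573 ± 0.171 and 0.0921 ± 0.0355 FPKM in the controls. Of 12 regulators, 9 were tested and 1 passed at 1 µM, against the same 1.87% of all genes. NR1H4, the bile acid receptor FXR, fell from 8.38 ± 3.75 to 2.99 ± 0.927 FPKM (SD, n = 5), that is by 1.19 (log2 -1.19; limma adjusted p = 0.035), and by 1.13 without the 5 libraries (log2 -1.13; limma adjusted p = 0.012). In the test across the PCB 126 groups NR1H4 missed the threshold (limma F-test, adjusted p = 0.069). At 1 µM AHR, HNF4A and RXRA did not pass the threshold, and NFE2L2 passed it without the 5 libraries but not with them (0.56; limma adjusted p = 0.020). Of 5 AhR targets, 4 rose at 1 µM, namely CYP1A1 (6.61 on the log2 scale), CYP1A2 (6.16), TIPARP (3.21) and CYP1B1 (2.51), with limma adjusted p of 0.008 or less, and all 4 passed without the 5 libraries. The same 4 passed the threshold at 10 nM, where no transporter did, and AHRR passed at neither concentration. Over all genes tested, 0.205% passed at 10 nM. CYP1A2, at 0.982 ± 0.606 FPKM in the controls, did not pass the variance filter in the herbicide table. It entered the PCB 126 fit through the exposed libraries in which it was high. The plot of the listed genes at 1 µM sets these groups side by side.

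**Figure D5:**
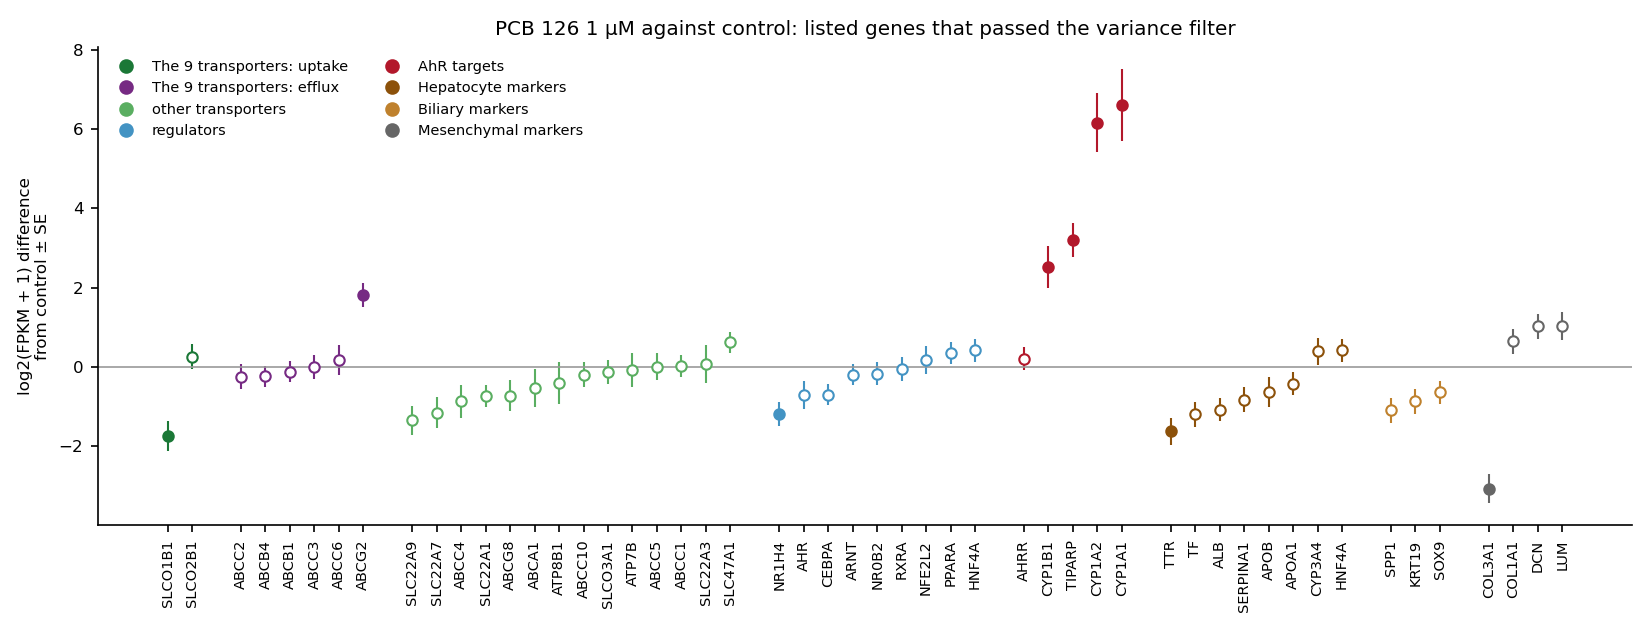
Difference from the controls at 1 µM PCB 126 in log2(FPKM + 1) ± SE (y axis) for the listed genes that passed the variance filter (x axis, grouped by list, HNF4A in 2 lists). Filled points have a limma adjusted p under 0.05, and among transporters these are SLCO1B1 (-1.74) and ABCG2 (1.81).

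Finally, the genes whose log2(FPKM + 1) followed each transporter most closely over the 40 libraries were searched among 9260 genes that passed the filter in both tables. The points share libraries, treatments and scaling, so these Pearson r are descriptions. For ABCG2 they were the AhR target TIPARP (r = 0.83), CYB561A3 (0.82) and SCG5 (0.81). For SLCO1B1 they were 3 secreted liver proteins, the paraoxonase PON1, the thyroxine-binding globulin SERPINA7 and antithrombin SERPINC1 (each r = 0.97). ABCB1 was closest to VAV2 (0.97) and ABCC2 to GCLC (0.95), the catalytic subunit of the enzyme that starts glutathione synthesis. The remaining transporters had lower maxima, from 0.60 for SLCO1B3 with R3HDM2 to 0.85 for ABCC6 with POLR2A. Among the 9 members themselves, ABCB1 and ABCC2 had the highest r (0.80), and ABCG2 and SLCO1B1 the lowest (-0.51).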

How the data were processed

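RNA sequencing of 40 HepaRG libraries (8 groups of 5) was analysed from the tables of transcript values. The authors aligned reads to GRCh38 with HISAT2 and quantified transcripts with StringTie as FPKM, per the study's methods, with versions not given in the sources used here. Columns with values below 0 (as deposited, 4 such values for PCB 126 and 6 for the herbicides) were recorded as a score and are FPKM otherwise; these values were set to 0. All table columns matched a library (0 did not). FPKM over all transcripts summed to 255292 to 513059 per library, while the sums in the results on libraries that stand apart cover the transcripts with a gene name. Read depth is unknown from FPKM, so no counting interval is given.

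FPKM were summed per gene name, and log2(FPKM + 1) was fitted with limma 3.58.1 (R 4.3.3) with all groups of a table in 1 fit, over genes with a variance of FPKM above 1, with Benjamini-Hochberg adjustment at 0.05. Each table was fitted separately, and both share the 5 controls. Dose steps were coded from 0 (control) to 3. Single genes were also tested with 2-sided exact permutation tests of 5 against 5 libraries. The limma fits were tested on simulated data with known changes. Other tools were Python 3.11.15, numpy 2.4.6, pandas 2.3.3, scipy 1.17.1 and matplotlib 3.10.9. The members, gene lists and tests were chosen with earlier results of these data known. Named genes were the 9 transporters, listed genes past the threshold or abundant, and the 3 genes with the highest Pearson r with each transporter. Alternatives were a pseudocount of 0.1, no filter, a mean FPKM of at least 1, 75th-percentile scaling, quantile normalization, a library-size term, array weights, a replicate block, only the 2 groups compared, all 40 libraries in 1 fit, the most abundant transcript, and leaving out single libraries or libraries more than 3 median absolute deviations from the median of the first principal component. Leaving out all libraries beyond the widest gap on that component, which was also applied to the listed genes and group sums, and adding unnamed transcripts of the locus, were chosen after seeing the data. Fold changes and p-values of the study were not used.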

Additional observations from a re-analysis of the deposited data

Results flagged for a closer look

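Each of the 9 transporters was examined in each of the 8 groups (72 sets of 5 libraries) for a library far from the other 4. In 6 sets the lowest library stood apart by Dixon's 95% criterion, which chance meets in about 1 in 20 sets. SLCO2B1 was at 4.98 FPKM in replicate 3 of 100 pM PCB 126, where the other libraries held 6.52 to 7.14 FPKM. It was at 1.53 FPKM in replicate 3 of 10 nM, beside 6.13 to 9.48 FPKM. In replicate 2 of 0.1 g/L glyphosate it was at 1.71 FPKM, beside 6.16 to 7.38 FPKM. ABCB1 was at 15.1 FPKM in the same glyphosate library, beside 24.6 to 27.6 FPKM. ABCB4 was at 3.15 FPKM in replicate 3 of 100 pM, beside 4.88 to 5.33 FPKM, and at 2.88 FPKM in replicate 1 of 1 µM, beside 3.86 to 4.16 FPKM. Replicate 3 of 10 nM, replicate 2 of 0.1 g/L glyphosate and replicate 1 of 1 µM were among the libraries that stood apart on the first principal component, and replicate 3 of 100 pM was not. Neither ABCG2 nor SLCO1B1 had such a library in any group.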

How the results depend on the processing

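At 1 µM PCB 126 the rise of ABCG2 passed the threshold in all 13 alternatives and all 20 fits without 1 library (limma adjusted p of 1.43e-05 to 0.0145 and of 0.00064 to 0.0062). The fall of SLCO1B1 passed it in 12 of 13 alternatives and in all 20 fits (0.00077 to 0.083 and 0.0042 to 0.043), and with no filter the number of called transporters at 1 µM was 1 instead of 2. Taken as its single transcript among all transcripts, SLCO1B1 had an adjusted p of 0.067. At 10 nM, ABCG2 became the 1 called transporter under 75th-percentile scaling (limma adjusted p = 0.012), quantile normalization (0.01) and array weights (0.022), within a range of 0.01 to 0.51 over 13 alternatives. The fits that called it kept the variance filter, which ABCG2 passed only through the 1 µM group, and the value of 0.51 was that with no filter. Across the PCB 126 groups the count was 1 instead of 2 with a pseudocount of 0.1, with no filter, and without the libraries that stand apart by either rule. Without 1 library at a time it was 1 to 2. Under array weights, 3 transporters were called for Roundup against control (ABCB1, ABCC2 and ABCC3) and 3 for Roundup against glyphosate at 10 µg/L (ABCB1, ABCC2 and ABCC6), all lower with Roundup, and 4 across the herbicide groups, where 0 were called otherwise. Of all 9533 genes, these weights called 3470, 4448 and 5527 in the same comparisons, close to the shares of the 7 tested members. Array weights also called the PCB 126 slope of SLCO2B1 (0.18 per step, adjusted p = 0.031). The uptake-minus-efflux difference at 1 µM was -0.79, -1.25 with a pseudocount of 0.1, -0.56 without the 5 libraries that stand apart, and -0.86 to -0.65 without 1 library. The causes were not tested. No called value changed sign, and 310 of 2896 alternative values, of uncalled differences of at most 0.26, did.

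The replicate block moved no count of transporters. With it, limma adjusted p at 1 µM was 0.0018 for ABCG2 and 0.0021 for SLCO1B1, while calls over all genes went from 182 to 357 at 1 µM and from 20 to 37 at 10 nM. Same-numbered libraries of different groups had r of -0.17 to 0.36 (median 0.05), beside a median of -0.02 for libraries of other numbers. With 5 numbers possible, 30 of 40 libraries were closest to their own number, so same-numbered libraries tended to vary together. The labels do not say that numbers mark a shared culture. The main fits therefore left the numbers out, and the replicate block stands as the alternative that takes them in. Over all genes, calls at 1 µM were 1094 (434 higher) with 75th-percentile scaling, 1085 (532 higher) with quantile normalization, 830 (454 higher) with a library-size term, 946 (268 higher) with array weights, 520 (201 higher) without the 5 libraries that stand apart and 298 (81 higher) with all 40 in 1 fit, beside 182 (63 higher). At 10 nM they were 140, 184, 114, 239, 56 and 43, beside 20. The median difference of all genes at 1 µM was -0.26, and -0.09 or -0.01 after 75th-percentile scaling or quantile normalization. With FPKM alone, the precision of low genes such as SLCO1B3 and ABCG2 could not be set from read counts.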
